A study of Arabidopsis thaliana with 12 samples.

Results

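The comparison described here sets roots of ozs3 (overly zinc sensitive 3), an Arabidopsis thaliana mutant in the Col-0 background, against roots of Col-0, the wild type, after 24 h at 4 °C. It uses the 3 ozs3 arrays and the 3 Col-0 arrays at 4 °C, which are 6 of the 12 arrays of the series. The other 6 arrays come from ozs3 and Col-0 plants that stayed at 23 °C. They are used to set the genotype difference in the cold beside the one without cold. They also enter the fit, so the spread behind each test at 4 °C is estimated from all 12 arrays. All plants were 4 weeks old and had grown hydroponically at 23 °C under short days (8 h light, 16 h dark). RNA came from roots, and labelled cRNA was hybridized to Affymetrix ATH1 arrays. The labels call the 3 samples of each group biological replicates, but they do not say whether a sample pools several plants. They also name neither the gene that is mutated in ozs3 nor the kind of allele, so no check of the genotype by the level of that gene was made.

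Plants that meet low temperature switch on cold-regulated genes, many of them through CBF transcription factors, and their mitochondria and membranes have to be protected while growth slows. Zinc is taken up in roots by ZIP transporters, whose genes respond to the regulators bZIP19 and bZIP23, and excess zinc is moved into vacuoles by MTP proteins. Reactive oxygen made under stress is handled by systems that include glutathione transferases, methionine sulfoxide reductases and the alternative NAD(P)H dehydrogenases of mitochondria.

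Each value below is the authors' log2 RMA intensity of a probe set, which is the set of short probes that measures 1 transcript or a few. Such levels can be compared between samples but not between genes. A difference is ozs3 minus Col-0 on the log2 scale, with the standard error (SE) from limma, and a gene was called at an adjusted p under 0.05. Across probe sets the arrays correlated at r between 0.9947 and 0.9969 within the 4 °C groups and between 0.9882 and 0.9919 across genotypes. The median SD of a probe set over 3 replicates was 0.124 in ozs3 and 0.108 in Col-0. A probe set whose mean did not exceed 5 was treated as dim (28.3% of those tested). PYK10, a β-glucosidase gene that is strongly expressed in roots, averaged 13.18 ± 0.41 in ozs3 and 13.58 ± 0.14 in Col-0 (SD, n = 3 each). The shoot genes SBPASE and PRK, which encode Calvin cycle enzymes, stayed below 5 on all 6 arrays, but other shoot markers read above that level. Single readings of the 7 shoot markers reached 7.40 in ozs3 and 7.30 in Col-0. The chlorophyll synthesis gene CHLM, 1 of the 7, averaged 6.89 in ozs3 and 7.23 in Col-0. The intensities of 7 shoot markers summed to between 424 and 503 per ozs3 array, against 454 to 510 per Col-0 array.

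Of 13356 named genes, 1794 were called at 4 °C (13.4% of those tested), of which 806 were higher in ozs3 (6.03%) and 988 were lower (7.4%). Counts of called members in the gene lists below stand beside these shares of all named genes. Most differences were small. Only 43 of the higher genes (0.322%) and 35 of the lower genes (0.262%) differed at least 2-fold, and the median size of a called difference was 0.471. Over all 22746 probe sets, named or not, 3326 were called (14.6%), 1461 of them higher (6.42%) and 1865 lower (8.2%). At least 2-fold differences were called for 92 higher probe sets (0.404%) and 88 lower ones (0.387%). The 3 arrays of 1 genotype lay wholly above the 3 of the other in 30.8% of probe sets and in 29.2% of named genes. Among the 1794 called named genes this held for 1769, so groups that lie apart add little to a call. The balance of higher and lower calls depended on how arrays were scaled. With every array set to 1 common median, 2230 probe sets were higher and 1442 lower, so that 60.7% of calls were higher instead of 43.9%, and the median difference over all probe sets moved to 0.08, against 0.02. The counts of at least 2-fold changes were then 106 higher and 75 lower. Without Col-0 replicate 1, Col-0 replicate 3 or ozs3 replicate 3 at 4 °C, the higher probe sets numbered 950, 966 and 968.

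**Figure D1:**
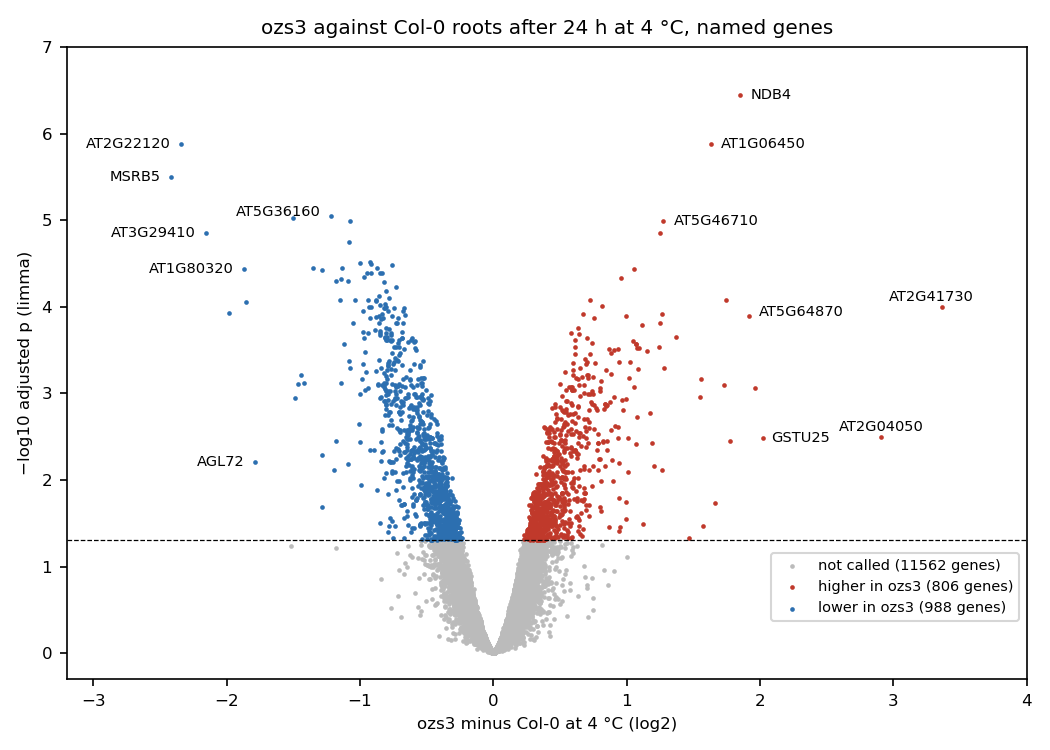
Each point is a named gene; the x axis gives ozs3 minus Col-0 at 4 °C (log2) and the y axis −log10 of the limma adjusted p, with the dashed line at 0.05. The 806 genes higher in ozs3 reach 3.37 (AT2G41730) and the 988 lower ones reach −2.42 (MSRB5), while most points lie within 1 log2 unit of 0.

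The 20 largest rises and the 20 largest falls were taken among called named genes whose groups did not overlap. That the groups of these genes lie apart therefore follows from the rule and is no further support. The rises ranged from 2.41-fold to 10.3-fold and the falls from 2.26-fold to 5.34-fold. The largest rise was that of AT2G41730, which encodes a small protein of unknown function. It read 10.78, 10.67 and 10.56 in ozs3 roots, against 7.56, 6.95 and 7.41 in Col-0 roots (difference 3.37 ± 0.37 SE, adjusted p = 1.01e-04). All 3 ozs3 arrays lay far above the Col-0 arrays, although the probe set is of a kind that can also detect related transcripts. AT2G04050, a MATE-family efflux transporter gene, read 6.68, 8.26 and 8.05 in ozs3 and 4.49, 4.73 and 5.05 in Col-0 (2.91 ± 0.55, adjusted p = 0.00321). Its Col-0 mean was dim; whether the dim level shrank this difference was not tested. Another member of the MATE family, AT5G38030, went the other way. It read 6.22, 7.40 and 6.83 in ozs3, against 7.79, 7.91 and 8.35 in Col-0 (−1.20 ± 0.26, adjusted p = 0.0077).

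Of the 7 named genes listed for mitochondrial stress and redox, 3 rose in ozs3 at 4 °C and none fell, and the list median was 0.10. NDB4 encodes an external alternative NAD(P)H dehydrogenase of the inner mitochondrial membrane. It read 7.55, 7.67 and 7.48 in ozs3, against 5.79, 5.69 and 5.67 in Col-0 (1.85 ± 0.09, adjusted p = 3.56e-07), the smallest adjusted p among the 40 genes. The replicates of each genotype lay close together, with SDs of 0.10 in ozs3 and 0.06 in Col-0. Its relatives NDB1, NDB2 and NDB3 were not called, with differences between −0.05 and 0.06. AT2G21640, a marker gene of oxidative and mitochondrial stress, read 7.45, 7.52 and 7.64 in ozs3, against 6.19, 6.16 and 5.61 in Col-0 (1.55 ± 0.25, adjusted p = 0.00109). GSTU25, the third member that rose, is described with the other glutathione transferases.

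Glutathione transferases join glutathione to reactive compounds, and their plant-specific tau class is the largest. Of 14 named members 2 rose and 3 fell, with a median of −0.25, against 0.03 over all named genes. With 1 common median 2 rose and 2 fell, at a list median of −0.19. GSTU25 lay between 9.55 and 10.08 in ozs3, against 7.55 to 8.31 in Col-0 (2.02 ± 0.38, adjusted p = 0.0033). Its immediate neighbour on chromosome 1, GSTU26, was lower, at 8.72, 8.89 and 8.59 in ozs3, against 10.01, 9.86 and 9.79 in Col-0 (−1.15 ± 0.12, adjusted p = 8.4e-05). GSTU25 and GSTU26 thus differed in opposite directions. The same contrast held for a second pair of neighbours. GSTU22 was higher (1.13 ± 0.32, adjusted p = 0.0324) and GSTU20, 2 genes away, was lower at 8.03, 8.39 and 8.53 in ozs3, against 9.15, 9.66 and 9.35 in Col-0 (−1.07 ± 0.15, adjusted p = 5.09e-04). The call of GSTU22 ended without ozs3 replicate 2 (adjusted p = 0.0513) or 3 (0.128) or Col-0 replicate 1 (0.115) or 2 (0.0727). GSTU21 and GSTU23 were not called (−0.64, adjusted p = 0.058, and −0.45, adjusted p = 0.1), and GSTF4 was lower by a small margin (−0.25, adjusted p = 0.0461).

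The methionine sulfoxide reductase gene MSRB5 showed the largest fall of any named gene. It read 8.02, 8.19 and 8.48 in ozs3, against 10.57, 10.40 and 10.97 in Col-0 (−2.42 ± 0.16, adjusted p = 3.16e-06). Every ozs3 array lay below every Col-0 array, as the rule for the largest falls required. MSRB enzymes reduce oxidized methionine in proteins, and the other 4 named members of the MSR families were not called, with differences between −0.16 and 0.00. UDP-glycosyltransferases, which attach sugars to small molecules, gave 1 rise and 2 falls among 47 members (2 rises and 2 falls with repeated quantile normalization and with 1 common median). Their called share was smaller than the 13.4% over all named genes. UGT78D1, a flavonol rhamnosyltransferase, fell to 4.39 ± 0.12 in ozs3, against 5.01 ± 0.05 in Col-0 (−0.63 ± 0.09, adjusted p = 6.8e-04), where the ozs3 mean was dim. UGT74B1, which acts in glucosinolate synthesis, differed by −0.44 ± 0.10 (adjusted p = 0.00952). The list of 24 cytochrome P450 genes holds mostly CYP71B members and not the whole family. Of these 24 none rose and 4 fell, CYP71B37 (−0.85), CYP71B26 (−0.82), CYP71B34 (−0.46) and CYP51G2, of the sterol demethylase family (−0.36). With every array set to 1 common median, 1 P450 gene was called higher. The call of CYP71B34 ended without ozs3 replicate 3 (adjusted p = 0.0585).

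The 20 largest falls included genes of several enzyme families. AT3G29410, a terpene synthase gene, read 9.12, 9.73 and 9.58 in ozs3, against 11.99, 11.41 and 11.50 in Col-0 (−2.15 ± 0.18, adjusted p = 1.39e-05). AT1G68040, a methyltransferase gene of the SABATH family, read 5.75, 6.05 and 5.77 in ozs3, against 8.33, 7.53 and 7.65 in Col-0 (−1.98 ± 0.22, adjusted p = 1.17e-04). Neither gene's groups overlapped, as the rule for the 20 largest falls required. The 2 named members of the terpene synthase list were not called. AT5G38020, another SABATH gene and the neighbour of AT5G38030, was lower by less (−1.29 ± 0.34, adjusted p = 0.0207). Its call ended without ozs3 replicate 1 (adjusted p = 0.0802) or 3 (0.0597) or Col-0 replicate 3 (0.081). The BAHD acyltransferase gene AT3G26040, whose ozs3 mean was dim, read 4.61, 4.82 and 4.31 in ozs3, against 6.47, 5.51 and 6.03 in Col-0 (−1.42 ± 0.21). The reductase-like gene AT1G66800, of the cinnamyl alcohol dehydrogenase type, differed by −1.18 ± 0.22 and the tyrosine aminotransferase family gene AT5G36160 by −1.21 ± 0.09 (adjusted p = 9.06e-06).

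Of the 20 largest falls, 3 were 2-oxoglutarate-dependent oxygenase genes, named only by locus. AT1G80320 read 7.06, 7.15 and 7.09 in ozs3, against 9.34, 8.83 and 8.73 in Col-0 (−1.87 ± 0.18, adjusted p = 3.69e-05). AT1G52790 read 6.44, 6.22 and 6.20 in ozs3, against 8.40, 7.94 and 8.09 in Col-0 (−1.86 ± 0.20, adjusted p = 8.89e-05). AT1G52820, 3 genes away, averaged 8.76 ± 0.12 in ozs3 and 10.22 ± 0.27 in Col-0 (−1.46 ± 0.22). The groups of all of them were apart, as the rule for the 20 largest falls required. Among the 20 largest rises, AT5G43450, an oxygenase gene related to those of ethylene synthesis, rose by 1.56 ± 0.23 (adjusted p = 6.88e-04) over a dim Col-0 mean of 4.51. Of the 5 named members of the oxygenase list, which does not hold these genes, none rose and AT2G36690 was called lower (−0.62, adjusted p = 0.0399), with a list median of −0.14. That call ended when a 4 °C array was left out, ozs3 replicate 1 (adjusted p = 0.143) or 2 (0.0815) or Col-0 replicate 3 (0.157), and when a 23 °C array was, ozs3 replicate 1 (0.0505) or 2 (0.0517) or Col-0 replicate 1 (0.0534). Repeated quantile normalization (0.0565), 1 common median (0.0644), array weights (0.0752) and a fit of the 6 compared arrays alone (0.0857) ended it too.

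**Figure D2:**
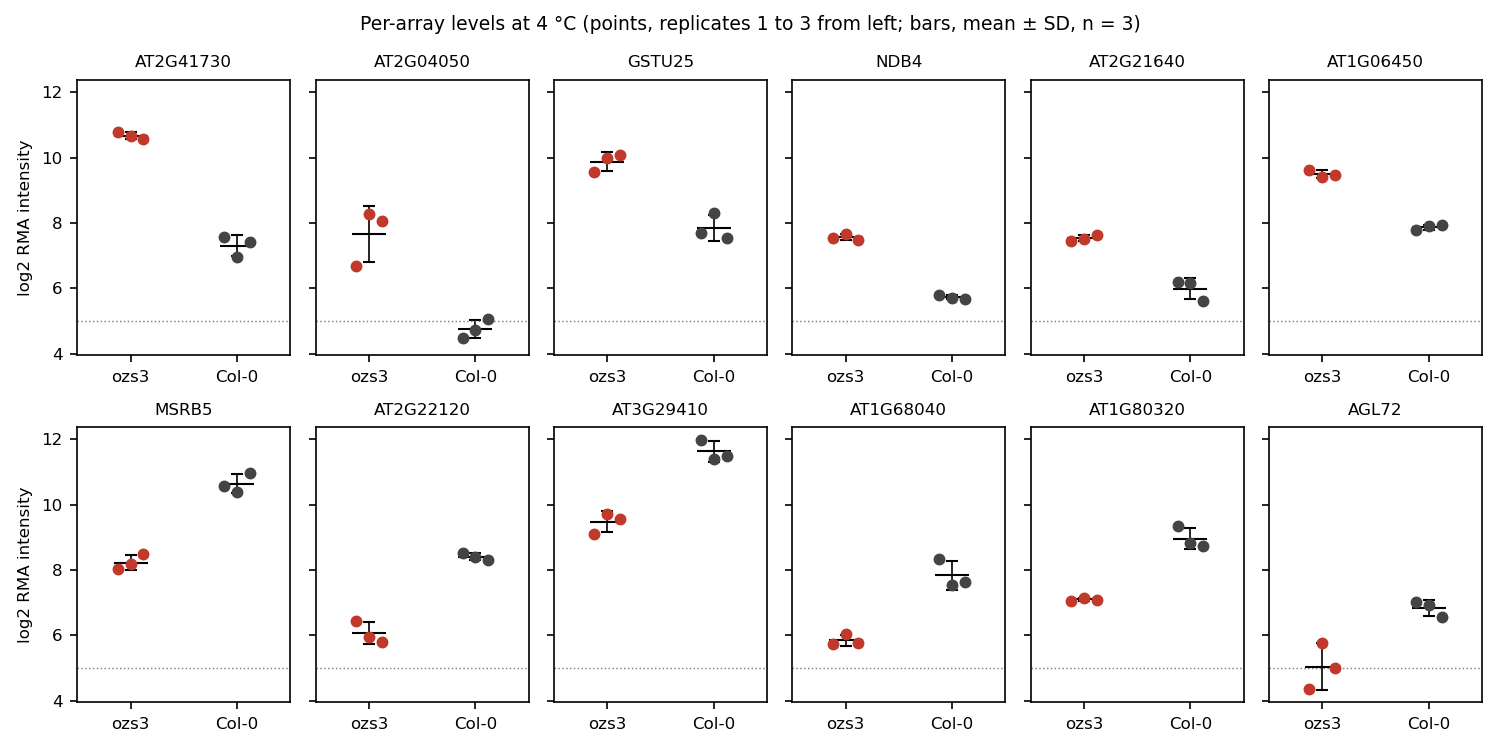
Log2 RMA intensity (y axis) of 12 genes in each 4 °C array, with ozs3 on the left of each panel and Col-0 on the right; points are replicates 1 to 3, bars the mean ± SD (n = 3), and the dotted line the dim level of 5. In all 12 panels the ozs3 points lie on 1 side of the Col-0 points. The rule for the largest rises and falls required such a separation, so it is no further support. The points lie at 10.56 to 10.78 against 6.95 to 7.56 for AT2G41730 and at 8.02 to 8.48 against 10.40 to 10.97 for MSRB5.

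Among regulators and RNA-related genes, AT1G06450, which encodes a CAF1-type deadenylase, rose with little spread. It read 9.62, 9.39 and 9.46 in ozs3, against 7.77, 7.89 and 7.92 in Col-0 (1.63 ± 0.10, adjusted p = 1.33e-06). AT5G46710, a PLATZ-type zinc-binding factor gene, was higher by 1.28 ± 0.10 (adjusted p = 1.01e-05), and AT5G01380, the trihelix factor GT-3a, by 1.37 ± 0.17 (adjusted p = 2.24e-04). AT2G22120, a gene for a RING/FYVE/PHD zinc finger protein, read 6.45, 5.96 and 5.81 in ozs3, against 8.53, 8.40 and 8.30 in Col-0 (−2.34 ± 0.14, adjusted p = 1.33e-06). Its groups were apart, as the rule for the largest falls required. AT4G40070, a RING gene of the ATL family, differed by −1.35 ± 0.13 (adjusted p = 3.6e-05), and AT2G25590, which encodes a Tudor-like protein, differed by −1.28 ± 0.12 (adjusted p = 3.78e-05).

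In the list of 42 MADS and homeobox genes there was 1 rise and there were 3 falls, at a median of 0.06. In the main fit this called share was smaller than the 13.4% over all named genes. AGL72 read 4.35, 5.78 and 5.01 in ozs3, against 7.01, 6.93 and 6.57 in Col-0 (−1.79 ± 0.38, adjusted p = 0.00619). The ozs3 replicates spread widely (SD 0.72), yet all stayed below the Col-0 arrays, as the rule for the largest falls required. Its close relatives AGL42 (−0.95 ± 0.09, adjusted p = 4.08e-05) and AGL71 (−1.52, adjusted p = 0.0577) had differences of the same sign, of which only that of AGL42 was called. These MADS genes belong to the SOC1-like group. AGL79 was lower by a similar amount (−0.96 ± 0.15) and AGL18 was higher (0.42 ± 0.09). With 1 common median 4 members were higher and 3 lower, and with repeated quantile normalization 2 and 4.

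Of 15 bZIP genes 3 rose and 1 fell. BZIP60, which drives the response to unfolded proteins in the endoplasmic reticulum, read 11.34, 11.52 and 11.55 in ozs3, against 10.78, 10.75 and 10.64 in Col-0 (0.75 ± 0.12, adjusted p = 0.00101). In the same unfolded protein response list of 8 genes, 3 chaperone-related genes were lower. The calreticulin gene CRT1b read 11.82, 11.57 and 11.60 in ozs3, against 12.43, 12.30 and 12.44 in Col-0 (−0.72 ± 0.10, adjusted p = 4.14e-04). ATERDJ2B, a J-domain protein of the endoplasmic reticulum, read 6.75, 6.78 and 6.78 in ozs3, against 7.45, 7.47 and 7.54 in Col-0 (−0.71 ± 0.14, adjusted p = 0.00441), and ATERDJ3B was lower by less (−0.39, adjusted p = 0.00966). BZIP60 and the 3 chaperone genes thus differed in opposite directions. Among other bZIP genes, bZIP44 rose by 0.59 ± 0.10 (adjusted p = 0.00211). BZIP61 fell by 0.55 on the log2 scale (adjusted p = 0.0326), a call that ended without ozs3 replicate 2 or 3 or Col-0 replicate 1 or 3 (adjusted p = 0.0575, 0.113, 0.103 and 0.0857).

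Of 8 listed cold-regulated genes with a named probe set, COR27 was called (0.87 ± 0.25, adjusted p = 0.0347) and none was lower, a share close to the 13.4% called over all named genes. All 8 differences were positive, with a median of 0.33. COR47, a dehydrin gene, averaged 14.82 ± 0.09 in ozs3 and 14.80 ± 0.07 in Col-0, and LTI30 averaged 14.73 ± 0.06 in ozs3 and 14.65 ± 0.03 in Col-0. Both lay at or near the highest value of each of these arrays, which was between 14.79 and 14.92, so a difference between genotypes there may not be readable. COR27 read 9.39, 9.46 and 9.20 in ozs3, against 8.66, 8.59 and 8.20 in Col-0. Its groups were apart, but the call ended without any 1 of the 6 arrays at 4 °C (adjusted p between 0.0561 and 0.125). COR15A, which encodes a cold-protective plastid protein, read 11.39, 11.29 and 11.60 in ozs3, against 10.74, 10.41 and 10.89 in Col-0, and COR15B lay between 9.96 and 10.07 in ozs3, against 9.02 to 9.50 in Col-0. Neither was called (0.75 ± 0.46, adjusted p = 0.318, and 0.74 ± 0.31, adjusted p = 0.135), although their groups were apart. The SE of the 12-array fit takes in the 23 °C arrays, where the ozs3 replicates of COR15A had an SD of 1.36 and those of COR15B an SD of 0.89. Without ozs3 replicate 3 at 23 °C both were called (adjusted p = 0.0089 and 0.00469), and likewise in a fit of the 6 arrays at 4 °C alone (0.00843 and 0.0054).

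Of 5 zinc homeostasis genes none was called at 4 °C, with differences between −0.15 and 0.47. These 5 are the named members found for 19 symbols written, so the list covers only part of zinc homeostasis. ZIP9, of the zinc uptake transporter family, read 7.70, 7.27 and 7.69 in ozs3, against 7.14, 6.86 and 7.24 in Col-0 (0.47 ± 0.18, adjusted p = 0.101). The groups lay next to each other without overlap, and ZIP9 was called when Col-0 replicate 2 or 3 of the 23 °C arrays was left out (adjusted p = 0.0498 and 0.0454). The zinc transporter gene MTPA1 averaged 5.07 ± 0.14 in ozs3 and 4.83 ± 0.54 in Col-0 at 4 °C (0.23 ± 0.46, adjusted p = 0.798), near the dim level. The regulator gene bZIP19 differed by 0.14 ± 0.11 (adjusted p = 0.465) with overlapping groups. Of 4 iron deficiency genes, PYE, a repressor of iron homeostasis genes, was called higher (0.40 ± 0.11, adjusted p = 0.0261). The call ended without ozs3 replicate 1 (adjusted p = 0.0875) or Col-0 replicate 3 (0.104) and in a fit of the 6 compared arrays (0.0612), and reached 0.05 with array weights. Among 9 bHLH genes, bHLH104 (0.32, adjusted p = 0.0312) and ILR3 (0.26, adjusted p = 0.0372), which act upstream of iron deficiency genes, were also called. Both calls ended without any 1 of 5 of the 6 arrays at 4 °C, with adjusted p up to 0.106 for bHLH104 and up to 0.13 for ILR3, and that of ILR3 also with repeated quantile normalization (0.0524).

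AT4G28450, a homologue of the yeast nucleolar protein Sof1, did not differ beyond the spread between replicates. It read 9.21, 9.08 and 9.17 in ozs3, against 9.26, 9.09 and 9.16 in Col-0 (−0.02 ± 0.11, adjusted p = 0.941). The groups overlapped fully. CUL4, the scaffold of a class of ubiquitin ligases, averaged 10.26 ± 0.05 in ozs3 and 10.43 ± 0.10 in Col-0 (−0.17 ± 0.08, adjusted p = 0.18). Of 6 ribosome biogenesis genes, the nucleolar WD40 gene YAO was called higher (0.29 ± 0.07, adjusted p = 0.0194). That call ended without ozs3 replicate 1 or 3 or Col-0 replicate 1 or 2 (adjusted p between 0.0536 and 0.0634).

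Among genes of cell wall loosening, calls were mostly rises. Of 27 expansin and XTH genes, which loosen or remodel the wall, 5 rose and 1 fell. Their median was 0.21, and 21 differences were positive. With 1 common median 11 rose and 1 fell. The expansin-like genes EXLA1 (1.07 ± 0.14, adjusted p = 2.71e-04), EXLA3 (0.89, adjusted p = 0.0104) and EXLA2 (0.88 ± 0.13, adjusted p = 6.02e-04) were higher. EXLA1 read 11.12, 11.24 and 11.14 in ozs3, against 10.04, 10.33 and 9.94 in Col-0. XTH32 (0.64, adjusted p = 0.0276) and XTH18 (0.51 ± 0.11, adjusted p = 0.00755) were higher too. XTH26, a root hair gene for a xyloglucan-modifying enzyme, read 6.36, 5.84 and 6.75 in ozs3, against 7.78, 7.12 and 7.91 in Col-0 (−1.28 ± 0.26, adjusted p = 0.0052). Its groups were apart, as the rule for the largest falls required. The other named root hair genes, EXPA7 (0.55, adjusted p = 0.054) and EXPA18 (−0.04, adjusted p = 0.909), were not called, and the intensities of the 3 genes summed to 975 to 1367 per ozs3 array, against 859 to 1283 per Col-0 array. In whole roots, fewer cells of a type and less RNA per cell cannot be told apart.

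Further cell wall genes were called in both directions. CSLC04, which makes the glucan backbone of xyloglucan, rose by 0.81 ± 0.09 (adjusted p = 9.84e-05), reading 9.69, 9.64 and 9.49 in ozs3, against 8.82, 8.86 and 8.71 in Col-0. IRX15-L, which acts in xylan synthesis, was lower (−0.46, adjusted p = 0.0179), but not without ozs3 replicate 2 (adjusted p = 0.0706) or Col-0 replicate 1 (0.0794). Of 22 TRICHOME BIREFRINGENCE-LIKE genes, a family that adds acetyl groups to wall polymers, 4 fell and none rose (median −0.10). These were TBL32 (−0.50), TBL28 (−0.41, adjusted p = 0.00861), TBL30 (−0.39) and TBL25 (−0.31). With 1 common median 2 fell. The call of TBL32 ended without Col-0 replicate 3 (adjusted p = 0.0586), that of TBL25 without ozs3 replicate 3 (0.0712) or Col-0 replicate 1 (0.0689) or 3 (0.0902), and that of TBL30 under most alternatives (up to 0.181). The pectin methylesterase gene ATPMEPCRB rose by 0.76 ± 0.11 (adjusted p = 4.52e-04). The 3 named xylem genes and the phloem gene ATPP2-B3 were not called. ATPMEPCRD, of the same esterase family, was lower by a small margin (−0.39, adjusted p = 0.0329), and its call ended without ozs3 replicate 2 or 3 or Col-0 replicate 3 (adjusted p = 0.103, 0.0742 and 0.124) and with 1 common median (0.0686).

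**Figure D3:**
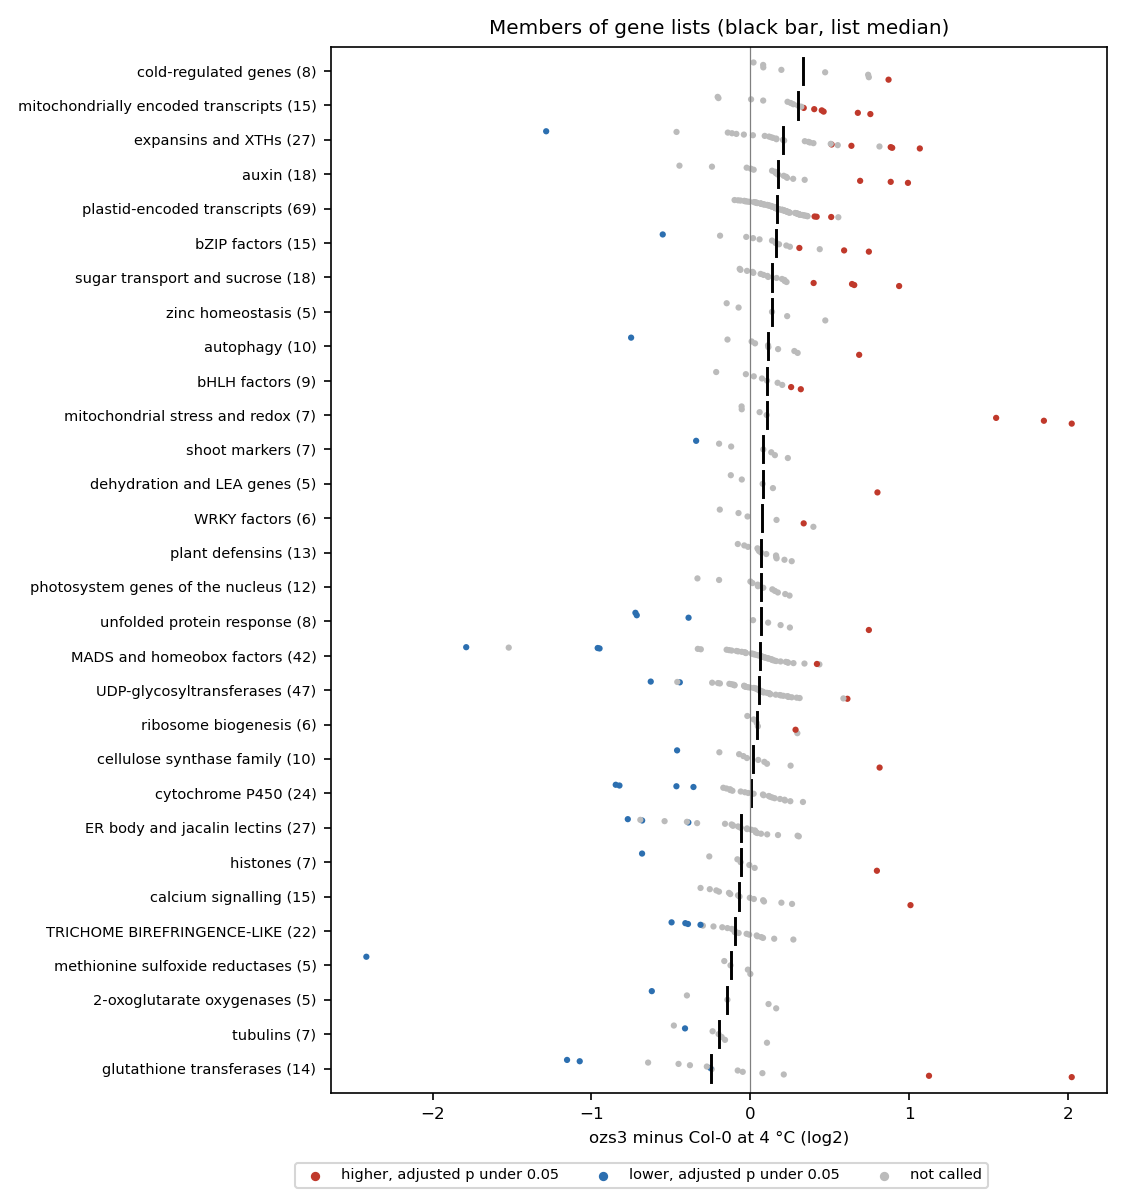
Each point is a named member of a gene list (rows, with the number of members in brackets), placed at ozs3 minus Col-0 at 4 °C (log2); red points rose, blue points fell and grey points were not called, and black bars are list medians. Only lists with at least 5 named members are drawn. Among them medians lie between −0.25 (glutathione transferases) and 0.33 (cold-regulated genes), and the points farthest from 0 are MSRB5 at −2.42 and GSTU25 at 2.02.

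Calls among organelle-encoded transcripts were all higher in ozs3. Of 15 mitochondrially encoded transcripts 6 rose and none fell, with a median of 0.30, and 13 differences were positive. The cytochrome oxidase subunit gene cox2 read 6.77, 6.71 and 6.94 in ozs3, against 6.11, 6.12 and 5.92 in Col-0 (0.76 ± 0.09, adjusted p = 1.35e-04). The cytochrome c maturation genes ccb382 (0.68, adjusted p = 0.0074), ccb452 (0.45, adjusted p = 0.011) and ccb206 (0.34, adjusted p = 0.0426) were higher. So were nad9 (0.46, adjusted p = 0.0324) and nad4 (0.40, adjusted p = 0.0429), which encode subunits of complex I. The call of nad9 ended without ozs3 replicate 3 (adjusted p = 0.129) or any Col-0 replicate at 4 °C (0.0796, 0.0643 and 0.0902). The call of ccb452 ended without ozs3 replicate 3 (0.0521) or Col-0 replicate 1 (0.0527). With repeated quantile normalization 5 rose, and with 1 common median 7. Of 69 plastid-encoded transcripts 3 rose and none fell, with a median of 0.17, and 8 rose with 1 common median. The 3 of 69 are a smaller share than the 6.03% of all named genes called higher. They were ccsA (0.51, adjusted p = 0.00564), accD (0.42, adjusted p = 0.00591) and the dim rps14 (0.41, adjusted p = 0.0233), whose call ended without ozs3 replicate 3 (0.0991) or Col-0 replicate 1 (0.0942) or 3 (0.0619). None of 12 nuclear photosystem genes was called.

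In the lists of auxin genes and of sugar transport and sucrose synthesis, the few calls were all rises. Over all named genes 13.4% were called, 6.03% higher and 7.4% lower, and the lists were not tested as sets. Of 18 auxin genes 3 rose and none fell (5 rose with 1 common median). LBD29, which acts in lateral root formation, read 7.59, 7.71 and 8.10 in ozs3, against 6.77, 7.34 and 6.65 in Col-0 (0.88 ± 0.16, adjusted p = 0.00268). GH3.3 (0.99 ± 0.28, adjusted p = 0.0281) and GH3.1 (0.69 ± 0.18, adjusted p = 0.0193) encode enzymes that link auxin to amino acids. The call of GH3.3 ended without ozs3 replicate 1 or 2 or Col-0 replicate 1 or 3 (adjusted p = 0.0801, 0.0732, 0.0806 and 0.103), and that of GH3.1 without ozs3 replicate 1 (0.0585) or Col-0 replicate 3 (0.0814). Of 18 genes of sugar transport and sucrose synthesis 4 rose and none fell. The sugar transporter gene SWEET2 read 9.08, 9.0 and 8.91 in ozs3, against 8.19, 8.18 and 7.81 in Col-0 (0.94 ± 0.17, adjusted p = 0.00242), and SWEET13 was higher by 0.64 ± 0.12 (adjusted p = 0.00286). The other calls, SWEET1 and ATSPS4F, ended without any 1 of most of the 4 °C arrays (adjusted p up to 0.153 and 0.0956). The sugar transporter gene AT1G54730, of the ERD6-like type, was among the largest falls, at 6.32, 6.17 and 6.03 in ozs3, against 7.71, 7.48 and 7.84 in Col-0 (−1.50 ± 0.12, adjusted p = 9.54e-06). The amino acid transporter gene AT1G25530 was also lower (−1.18 ± 0.12, adjusted p = 5.03e-05).

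Some further families held calls in both directions. APS4, an ATP sulfurylase gene of sulfate assimilation, rose by 0.96 ± 0.09 (adjusted p = 4.63e-05), while AT1G04770, of a family induced by sulfur deficiency, differed by −1.44 ± 0.21 (adjusted p = 6.07e-04). Of 10 autophagy genes, ATG8E was higher (0.69 ± 0.17, adjusted p = 0.0142) and ATG8B was lower (−0.75 ± 0.16, adjusted p = 0.00621), and with 1 common median 2 were higher. The call of ATG8E ended without Col-0 replicate 3 (adjusted p = 0.0519). Of 7 histone genes, the H2B gene HTB11 was higher (0.80 ± 0.17, adjusted p = 0.00573) and the H2B gene HTB1 was lower (−0.68 ± 0.09, adjusted p = 2.28e-04). The list of 27 ER body and jacalin lectin genes holds mostly members of the wider β-glucosidase (BGLU) family. Of the 27 none rose and 3 fell, a smaller called share than the 13.4% over all named genes. That share describes the whole list and not the ER body genes within it. The ER body gene NAI2 read 10.78, 10.86 and 10.92 in ozs3, against 11.49, 11.34 and 11.76 in Col-0 (−0.68 ± 0.11, adjusted p = 0.00136). The calls of BGLU44 (−0.77) and JAL34 (−0.39) ended without ozs3 replicate 1 or 3 or Col-0 replicate 3, and for BGLU44 also without Col-0 replicate 2 (adjusted p between 0.0565 and 0.1 over both genes). With 1 common median 1 member of that list rose and 2 fell. CML37, a calmodulin-like gene, was higher (1.01 ± 0.22, adjusted p = 0.00804), as were the acid phosphatase gene PAP20 (1.10 ± 0.14) and the chitinase gene CHI (0.86 ± 0.14).

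The other calls within the lists were few. The dehydration gene LEA4-5 read 9.22, 8.58 and 8.84 in ozs3, against 7.93, 8.55 and 7.76 in Col-0 (0.80 ± 0.21, adjusted p = 0.0205), with the lowest ozs3 array just above the highest Col-0 array. Its call ended without ozs3 replicate 1 or 3 or Col-0 replicate 1 or 3 (adjusted p = 0.0791, 0.0518, 0.0754 and 0.0874). UGT76E2, a glycosyltransferase gene, was higher (0.61 ± 0.11, adjusted p = 0.00221), and the tubulin gene TUA1 was lower (−0.41 ± 0.09, adjusted p = 0.00948). Smaller calls were those of WRKY47 (0.34), bZIP48 (0.31), CHLM (−0.34), which encodes an enzyme of chlorophyll synthesis, and CDC27a (−0.52), a subunit of the anaphase-promoting complex. The call of WRKY47 ended without ozs3 replicate 3 or Col-0 replicate 2 or 3 (adjusted p = 0.055, 0.054 and 0.0589). Those of CHLM, CDC27a and bZIP48 ended without any 1 of 4 or 5 of the 6 arrays at 4 °C (adjusted p up to 0.146, 0.0804 and 0.16). None of 13 plant defensin genes was called, with differences between −0.08 and 0.26.

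Beside the genotype difference at 4 °C stands the one at 23 °C, which was measured on other arrays. At 23 °C, 1442 of 22746 probe sets were called (6.34%), 720 higher and 722 lower (3.17% each), and 2253 with the replicate number as a block in the fit. Among named genes 794 were called (5.94%). Of the 3326 calls at 4 °C, 193 were higher and 154 lower at both temperatures, which is 10.4% of the 4 °C calls and 24.1% of the 23 °C calls. For 66 probe sets the ozs3 value was the higher one at 4 °C and the lower one at 23 °C, and in 47 it was lower at 4 °C and higher at 23 °C, together 3.4% of the 4 °C calls and 7.84% of the 23 °C calls. The 2 differences correlated at r = 0.0687 over probe sets, which share arrays and are no replicates of each other. The interaction, which tests whether the difference at 4 °C departs from that at 23 °C, was called for 2300 probe sets (10.1%) and 1260 named genes (9.43%). Among them were 1486 of the calls at 4 °C (44.7%). The interaction contains the 4 °C arrays, so the calls at 4 °C are not independent of it.

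**Figure D4:**
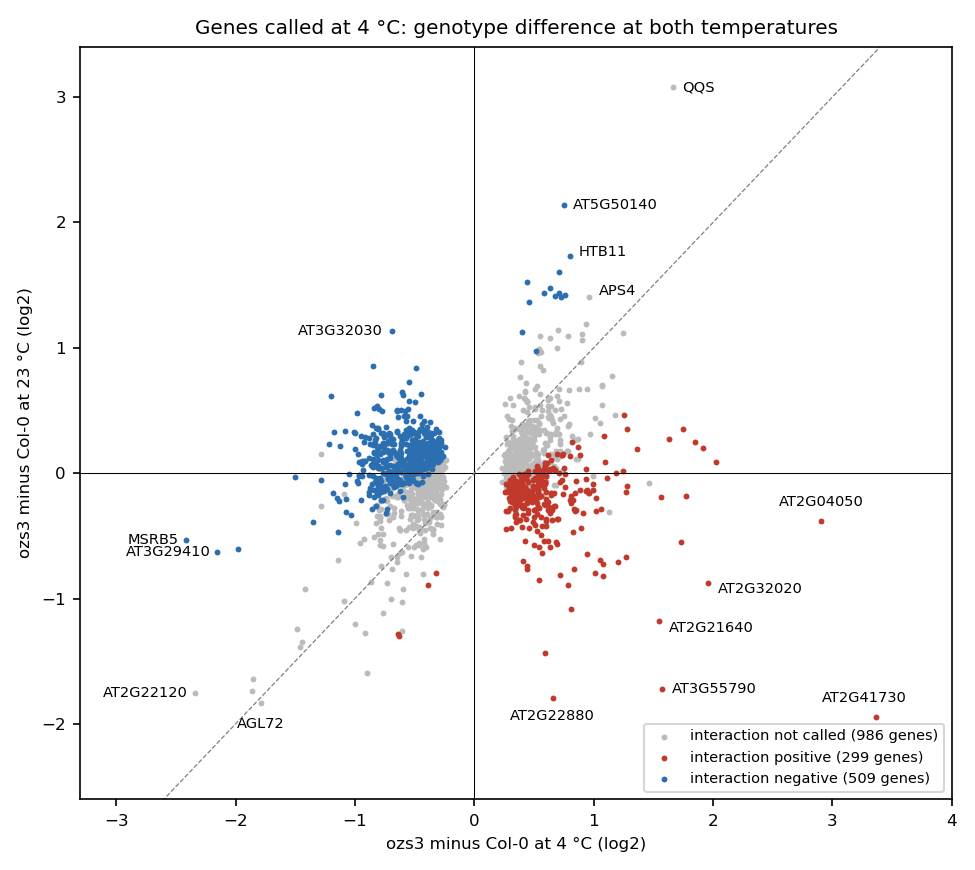
Each point is 1 of the 1794 named genes called at 4 °C; the x axis gives ozs3 minus Col-0 at 4 °C and the y axis the same at 23 °C (both log2), red and blue points have a called positive or negative interaction, and the dashed line marks equal differences. QQS and AT2G22120 keep their sign, and AT2G41730 lies at 3.37 and −1.94.

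Among the 20 largest rises at 4 °C, 18 had a called interaction, 1 was also higher at 23 °C and 3 were lower there. Of all named genes called at 4 °C, 45.0% had a called interaction. The interaction contains the 4 °C difference by which the 20 were ranked, so a high count follows in part from that choice. AT2G41730 read 8.26, 7.66 and 8.24 in ozs3 and 10.12, 8.89 and 10.98 in Col-0 at 23 °C (−1.94 ± 0.37, adjusted p = 0.00685), so its sign turned (interaction 5.31 ± 0.52, adjusted p = 1.45e-04). The gene was higher at 4 °C than at 23 °C in ozs3 (2.62, adjusted p = 4.33e-05) and lower in Col-0 (−2.69, adjusted p = 4.07e-05). AT2G21640 turned in the same way, with 6.16 ± 0.12 in ozs3 and 7.34 ± 0.66 in Col-0 at 23 °C (−1.18 ± 0.25, adjusted p = 0.0117). AT3G55790 differed by 1.57 ± 0.46 at 4 °C (adjusted p = 0.0337) and −1.72 ± 0.46 at 23 °C (adjusted p = 0.0393). Its 4 °C call ended without ozs3 replicate 1, 2 or 3 or Col-0 replicate 2 or 3 (adjusted p between 0.0668 and 0.119). The armadillo-repeat gene AT3G02840 (1.08 at 4 °C and −0.82 at 23 °C) and CML37 (1.01 and −0.80) also had called differences of opposite sign. The acetyltransferase-like gene AT2G32020 read 11.36, 11.42 and 11.37 in ozs3, against 9.61, 9.62 and 9.05 in Col-0 at 4 °C (1.96 ± 0.30), while at 23 °C its difference was not called (−0.87, adjusted p = 0.111).

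The other large rises were not called at 23 °C, apart from QQS. The flotillin-like gene AT5G64870 read 7.91, 7.36 and 6.98 in ozs3, against 5.57, 5.92 and 5.01 in Col-0 at 4 °C (1.91 ± 0.22, adjusted p = 1.28e-04), and differed by 0.20 at 23 °C. AT3G10930, a gene for an IDA-like peptide, read 8.73, 9.41 and 9.14 in ozs3, against 7.18, 7.59 and 7.19 in Col-0 (1.78 ± 0.34, adjusted p = 0.00355), and differed by −0.18 at 23 °C. The groups of both genes were apart at 4 °C, as the rule for the 20 largest rises required. AT1G43910, of the AAA-type ATPases, averaged 10.66 ± 0.06 in ozs3 and 9.39 ± 0.19 in Col-0 at 4 °C (1.27 ± 0.14, adjusted p = 1.2e-04). Its relative AT3G28580 was higher by more but with wider spread (1.47 ± 0.46, adjusted p = 0.0472), and its call ended at 4 °C without ozs3 replicate 2 or 3 or any of the Col-0 replicates (adjusted p between 0.0538 and 0.161). It also ended without ozs3 replicate 2 or Col-0 replicate 1 at 23 °C (0.0536 and 0.0579). The uncharacterised genes AT3G45730 (1.75 ± 0.19), AT4G33666 (1.73 ± 0.26) and AT5G14730 (1.27 ± 0.28) and the acetyltransferase-like AT5G67430 (1.28 ± 0.18) complete the 20, together with QQS. At 23 °C the differences of these 4 genes were 0.36 for AT3G45730, −0.55 for AT4G33666, −0.67 for AT5G14730 and 0.35 for AT5G67430 (adjusted p = 0.315, 0.265, 0.19 and 0.304).

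Genes called at both temperatures included several of the largest falls. Of the 20 falls, 8 were also lower at 23 °C and none was higher. A called interaction was found for 10 of them, beside 45.0% of all named genes called at 4 °C. AT2G22120 averaged 7.03 ± 0.09 in ozs3 and 8.79 ± 0.12 in Col-0 at 23 °C (−1.76 ± 0.14, adjusted p = 7.92e-06). AT1G80320 (−1.74), AT1G52790 (−1.64), AT1G52820 (−1.38), AGL72 (−1.83), AT1G04770 (−1.34), AT3G26040 (−0.92) and the B12D-family gene AT3G29970 (−1.24) were the others called lower at 23 °C. For these genes the interaction was between −0.58 and 0.04 and was not called, which does not show that the 2 differences were equal. MSRB5, by contrast, averaged 10.94 ± 0.16 in ozs3 and 11.48 ± 0.21 in Col-0 at 23 °C (−0.53, adjusted p = 0.0635), with a called interaction (−1.88 ± 0.22, adjusted p = 4.5e-04).

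QQS, an orphan gene that affects the balance of carbon and nitrogen stores, was higher in ozs3 at both temperatures. It read 7.80, 6.65 and 6.14 in ozs3, against 5.35, 4.76 and 5.49 in Col-0 at 4 °C (1.66 ± 0.43, adjusted p = 0.0186), and it averaged 9.19 ± 0.48 in ozs3 and 6.11 ± 0.82 in Col-0 at 23 °C (3.08 ± 0.43, adjusted p = 9.23e-04). The 4 °C call ended without ozs3 replicate 1 (adjusted p = 0.0691), the highest array, or Col-0 replicate 2 (0.0722), the lowest. AT5G60250, a C3HC4 RING gene, read 6.21, 5.77 and 5.63 in ozs3, against 4.68, 4.68 and 4.51 in Col-0 at 4 °C, and its differences were 1.25 at 4 °C and 1.12 at 23 °C. The Col-0 mean was dim. APS4 (0.96 and 1.41), the cellulase-family gene AT1G13130 (0.93 and 1.19), AT3G29120 (0.91 and 1.06, dim at 4 °C) and the cupredoxin gene AT3G27200 (0.91 and 1.11) were likewise called higher at 4 °C and at 23 °C. The ankyrin-repeat gene AT5G50140 and HTB11 were higher at both temperatures with a smaller difference in the cold (0.75 against 2.14 at 23 °C, and 0.80 against 1.73 at 23 °C), and both interactions were called.

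**Figure D5:**
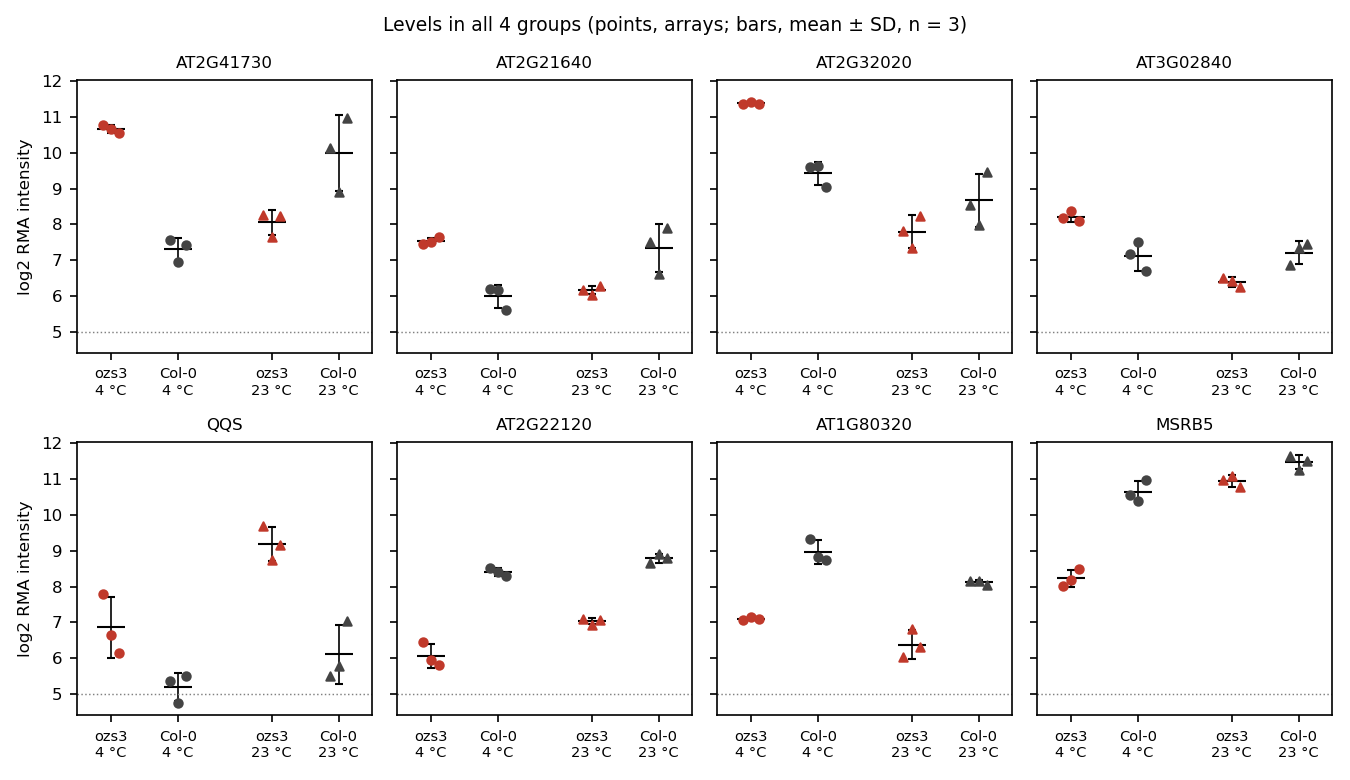
Log2 RMA intensity (y axis) of 8 genes in ozs3 and Col-0 at 4 °C (circles) and at 23 °C (triangles); points are arrays, bars the mean ± SD (n = 3), and the dotted line the dim level of 5. AT2G41730 and AT2G21640 are higher in ozs3 at 4 °C and lower at 23 °C, QQS is higher at both temperatures, and AT2G22120 and AT1G80320 are lower at both.

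The interaction was also large for genes with moderate differences at 4 °C. AT2G22880, which encodes a VQ-motif protein, read 9.05, 9.14 and 8.78 in ozs3, against 8.41, 8.66 and 7.93 in Col-0 at 4 °C (0.66 ± 0.17, adjusted p = 0.017), and differed by −1.79 at 23 °C (interaction 2.45 ± 0.23, adjusted p = 1.45e-04). Its 4 °C call ended without ozs3 replicate 2 (adjusted p = 0.0623) or Col-0 replicate 3 (0.064). AT3G32030, a terpene synthase gene measured by a probe set that may detect several transcripts, differed by −0.69 ± 0.18 at 4 °C and by 1.13 at 23 °C, and AT5G62340, of the pectin methylesterase inhibitor family, by −0.85 ± 0.24 and 0.86 (not called at 23 °C, adjusted p = 0.0532). The 4 °C calls of these genes ended without ozs3 replicate 3 or Col-0 replicate 1 or 3, and that of AT5G62340 also without ozs3 replicate 2 (adjusted p between 0.0567 and 0.0996 over both genes).

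Called genes lay on all 5 nuclear chromosomes. The share of named genes that were higher in ozs3 was 7.41% on chromosome 5 and between 5.26% and 5.92% on the other 4, and the share that were lower was between 6.59% and 7.88%. Among 76 named genes that were called, apart and changed at least 2-fold, 5 pairs lay within 3 genes of each other on the same chromosome. Of these, 3 pairs changed in the same direction and 2, the pairs of glutathione transferase genes, in opposite directions. Beside the pairs described above, AT2G19970 (1.06) and PR-1-LIKE (1.08), chosen after their values were seen, made up the fifth.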

How the data were processed

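Root RNA was measured on 12 arrays. Per the submitters' processing notes, the authors used RMA (background correction, normalization and probe set summary; version not given in the sources used here). Those values, as the authors deposited them, are log2 intensities, judged by their range (2.91 to 15.04, array medians 6.99 to 7.20). Precision is set by the number of arrays. From 22810 probe sets, 64 Affymetrix controls were removed. The platform table names a single gene for 13513 of the remaining 22746, several for 503 and none for 8730, giving 13356 named genes. Loci of 13436 probe sets were matched in a TAIR10.1 gene table, used only for names and gene order. Where a gene had several probe sets, the brightest over the 12 arrays stands for it.

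With limma 3.58.1 (R 4.3.3), 1 model of the 4 group means took in the 12 arrays (lmFit, contrasts, eBayes; 8 residual and 5.42 prior degrees of freedom), with Benjamini-Hochberg adjustment over all probe sets within each contrast. The fit was also run on simulated data with independent noise on each array. That run checks the code and not the error rate in these arrays. Named are the 20 largest rises and 20 largest falls with groups apart, up to 4 called members of each gene list, 9 genes chosen by name (COR15A, COR15B, COR27, AT4G28450, CUL4, ZIP9, MTPA1, bZIP19 and PYE), the 6 largest interactions of each sign among genes called at 4 °C, and genes called at both temperatures (6 in each same direction, 4 opposite); other list members are named to complete a list. The comparison, its rules and the lists were chosen with earlier results of these data known. Lists were built from symbols, and 12 symbols of unrelated genes were removed after values had been seen. Many lists hold only part of their family or pathway. For example, 36 symbols written for cold-regulated genes gave 8 named members. Likewise 25 for mitochondrial stress and redox gave 7, and 22 for the unfolded protein response gave 8. Of 66 lists, 56 had a named member. Lists are described by counts and medians, without a set test. Promoter motifs were not analysed here.

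Equal replicate numbers were checked as pairs: deviations from the group means of same-numbered ozs3 and Col-0 arrays correlated at 0.291, 0.198 and 0.353 at 4 °C and at 0.294, 0.326 and 0.473 at 23 °C. All exceeded 0.1, the cut-off used. Arrays with unlike numbers were not compared in this way, so the check cannot show that equal numbers mark pairs. The main fit holds no replicate term, so the SEs, adjusted p values and counts given here use no pairing. With the replicate number as a block, 4370 probe sets were called at 4 °C, against 3326 in the main fit. At 23 °C the block gave 2253, against 1442. Alternatives were the replicate block, an intensity trend, no dim probe sets, repeated quantile normalization, 1 common median, array weights, only the arrays compared, and each array left out.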

Additional observations from a re-analysis of the deposited data

Results flagged for a closer look

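The difference between ozs3 and Col-0 at 4 °C departed from that at 23 °C, by the interaction test of limma, in 67 of the 123 named genes, which were picked partly by their values at 4 °C. Of all named genes 9.43% had a called interaction. The values below are the 4 °C difference minus the 23 °C difference on the log2 scale, and no explanation was tested.

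Among genes with a positive interaction, AT2G41730 stood at 5.31, AT3G55790 at 3.30, AT2G04050 at 3.29, AT2G32020 at 2.83, AT2G21640 at 2.73, AT2G22880 at 2.45 and AT4G33666 at 2.27. Those of AT3G10930 (1.96), GSTU25 (1.94), AT5G14730 (1.93), AT3G02840 (1.90), CML37 (1.81), AT5G43450 (1.75), AT5G64870 (1.72) and NDB4 (1.60) came next. AT1G43910 (1.42), AT3G45730 (1.39), AT5G46710 (1.38), AT1G06450 (1.36), AT5G01380 (1.18), LBD29 (1.02), LEA4-5 (1.01) and PAP20 (1.00) lay between these and the smaller values. The smaller values were those of AT5G67430 (0.93), CHI (0.92), BZIP60 (0.91), SWEET2 (0.90), ZIP9 (0.89), PYE (0.83), SWEET13 (0.82), cox2 (0.76), EXLA2 (0.74), AGL18 (0.69), rps14 (0.58), CSLC04 (0.57) and bZIP44 (0.54). PYE is the 1 iron gene among them, with called differences of 0.40 at 4 °C and −0.43 at 23 °C. ZIP9 was not called at either temperature by itself.

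Among genes with a negative interaction, MSRB5 stood at −1.88, the terpene synthase genes AT3G32030 and AT3G29410 at −1.82 and −1.52, AT5G38030 at −1.81 and AT5G62340 at −1.71. AT1G66800 (−1.50), AT1G54730 (−1.47), AT5G36160 (−1.45), AT5G50140 (−1.39), AT1G68040 (−1.38), AGL42 (−1.24), AT2G25590 (−1.23), CYP71B26 (−1.19), CYP71B37 (−1.07) and AT1G25530 (−1.02) followed. The rest were CRT1b (−0.97), AT4G40070 (−0.96), GSTU26 (−0.96), NAI2 (−0.95), HTB11 (−0.93), BZIP61 (−0.88), GSTU20 (−0.87), ATERDJ2B (−0.74), TBL28 (−0.73), CDC27a (−0.67), ATPMEPCRB (−0.66), TBL30 (−0.63), TBL32 (−0.59), JAL34 (−0.56), CHLM (−0.49) and UGT78D1 (−0.48). For AT5G50140, HTB11 and ATPMEPCRB the negative value goes with a difference that was higher in ozs3 at both temperatures and smaller in the cold.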

How the results depend on the processing

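Of 123 named genes, 83 kept direction and side of the threshold at 4 °C under every alternative run, and 40 did not; among the largest differences, 17 of the 20 rises and 19 of the 20 falls kept theirs. AT4G28450, which was not called, changed sign with 1 common median (0.0388), without ozs3 replicate 2 at 4 °C (0.0185) and without Col-0 replicate 1 at 4 °C (0.0266), within a range of −0.0588 to 0.0266 over the arrays left out. With 1 common median 2230 probe sets were higher at 4 °C. The count called at 23 °C was 2253 with the replicate block and 2323 with array weights. With each array left out in turn, 950 to 1526 probe sets were higher and 1259 to 1941 lower at 4 °C, 767 to 1551 were called at 23 °C and 1439 to 2279 in the interaction; fewer arrays enter each of these fits. The replicate block gave 1982 higher and 2388 lower at 4 °C, with 3325 of the 3326 calls among them, and changed no call of a named gene there. Without dim probe sets 3351 were called, with an intensity trend 3309, with repeated quantile normalization 3306, with array weights 3404 and with only the arrays compared 2629. Among the 123 named genes, that last fit added the calls of COR15A and COR15B and ended 13 others. These were nad9, rps14, ILR3, BZIP61, PYE, CHLM, ATSPS4F, YAO, TBL25, TBL30, bZIP48, AT2G36690 and ATPMEPCRD. At least 1 mean at 4 °C was dim (at or below 5) for AT2G04050, AT5G43450, AT5G60250, AT3G29120, ATSPS4F, rps14, bZIP48, MTPA1, UGT78D1 and AT3G26040, and whether this shrank their differences was not tested. Of 66 lists, 10 had no named member.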
